A study of Mus musculus with 18 samples.

Results

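Chromatin modifiers and remodellers are the proteins that write, erase and read chemical marks on histones and DNA, or move nucleosomes along it. Genes of 12 families were chosen by the beginning of their symbols, which are the KDM, KMT, SETD, EZH, PRMT, HDAC, SIRT, DNMT, SMARC, CHD, CBX and HMG names. Of the 15964 mouse genes that a probe set with a single symbol measured here, 95 belonged to these families. Together they had 204 probe sets, and each gene was measured by its brightest one. The rule itself uses symbols and no expression value, but the families were picked with earlier results of these data known.

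The cells came from retinas of FVB/N mice at postnatal day 8, all homozygous for a transgene in which the Tie2 promoter drives green fluorescent protein (GFP). Retinas were pooled and dissociated with papain, and flow cytometry separated GFP-positive cells, taken as endothelium, from GFP-negative cells, which are all other retinal cells. RNA was amplified, labelled with biotin and measured on 18 Affymetrix MGU74v2 arrays, 3 for each population on each of the chips A, B and C of that set. Both populations carried the transgene, and Tie2 promoters are known to be active in some blood cells as well. Because retinas were pooled and the labels name no animals, the p-values below reflect array-to-array spread alone, which may be technical, and the small number of arrays limited the precision.

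The comparison asked how RNA for chromatin proteins differs between the growing endothelium and the rest of the retina. Values are intensities in arbitrary units, which can be compared between populations for 1 gene but not between genes. A difference is the mean of log2(intensity + 16) over GFP-positive arrays minus that over GFP-negative arrays, so 1 means 2-fold, and the changes of dim genes are understated. A gene passed the test when limma, fitted over all probe sets of its chip, gave a Benjamini-Hochberg adjusted p under 0.05, and is then spoken of as a call. A call is given as lost where leaving out 1 array or changing 1 step of the processing ended it, with the adjusted p then found. The other steps were the scaling of arrays, the pseudocount of 16, a limit to brighter probe sets, another variance model (limma-trend) or array weights, the replicate number as a block, the span of the adjustment and the choice of probe set. Probe sets are called ambiguous where their name carries a letter code, of which only some mark possible matches to several transcripts. In sorted populations fewer cells of a type and less RNA per cell cannot be told apart.

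The sort was checked with marker genes. Of 15 endothelial markers 12 were higher in GFP-positive cells. Cldn5 read 2357, 3126 and 3578 on the GFP-positive arrays and 21.5, 27.9 and 24.3 on the GFP-negative arrays. Its difference was 6.21 (SE 0.16, adjusted p = 2.68e-05), beside 5.29 (adjusted p = 0.000190) for Cdh5 and 4.15 (adjusted p = 0.000592) for Tek, which encodes Tie2,, while Pecam1 stood at -0.054 (adjusted p = 0.791). With a pseudocount of 64 Tek was 2.74. In GFP-negative cells 6 of 9 markers of Müller glia and progenitors were higher and 1 (Nes) was lower, 3 of 11 markers of neurons were higher and 1 (Stmn2) was lower, and 2 of 9 photoreceptor markers were higher. The summed intensities of these lists were 639 to 1777, 705 to 763 and 456 to 776 in GFP-positive cells, against 2866 to 4308, 1039 to 1118 and 839.6 to 1482 in GFP-negative cells. The summed intensity of 25 cell cycle genes was 4209 to 4393 in GFP-positive and 1651 to 1834 in GFP-negative cells, with 14 of the 25 higher in GFP-positive cells and 0 lower. That of 12 leukocyte markers was 1537 to 2060 against 559.6 to 604, with Laptm5, Fcer1g and C1qb higher. The pericyte, astrocyte and erythroid lists had 1 of 8, 1 of 4 and 0 of 3 genes lower and 0 higher. No marker was listed at 0, and the part of these differences in the results on chromatin genes was not tested. GFP-positive replicate 3 stood apart, with Spearman correlations of 0.911 to 0.929 across probe sets with replicates 1 and 2, against 0.960 to 0.987 for the other pairs of arrays of 1 population.

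As background, DNA is wound around histones, and the methyl and acetyl groups on histone tails help to decide which genes can be read. Methyltransferases such as the KMT, SETD and EZH enzymes add methyl groups to lysines, PRMT enzymes add them to arginines, and KDM enzymes remove them from lysines. Deacetylases and sirtuins remove acetyl groups, DNMT enzymes methylate cytosines in DNA, and CBX proteins bind methylated histones. SMARC and CHD proteins belong to ATP-driven remodelling machines, and HMG proteins bend DNA or loosen nucleosomes. As neurons leave the cell cycle, several subunits of the SWI/SNF remodeller are known to be exchanged for close relatives.

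Most of the chromatin genes that differed were lower in GFP-positive cells. Of the 95 genes, 30 (31.6%) were lower in GFP-positive cells and 6 (6.32%) were higher, while 59 did not pass. Over all 15964 genes 11.9% were lower and 9.83% were higher. The 6 higher genes were Smarcd2 (on an ambiguous probe set, with a value near 0 on the unambiguous one), Hdac7, Smarca2, Dnmt3b, Prmt6 and the pseudogene Hmga2-ps1. Lower by at least 2-fold were 16 genes, led by Prmt8, Smarca1, Hdac9 and Hmgn3. The median difference of the 95 genes was -0.25, and that of all genes was 0.040. The intensities of the populations did not overlap for 50 of the 95 genes (52.6%), against 41.4% of all genes.

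The count of higher genes was small and moved with single arrays. Without GFP-positive replicate 3 it was 12, with 14.9% of all genes then higher. Without GFP-positive replicate 2 it was 3, without GFP-negative replicate 1 it was 2, and without GFP-negative replicate 2 it was 3. The count of lower genes lay between 21 and 35 when any 1 array was left out, while the median difference moved from -0.25 to -0.069 without GFP-positive replicate 1 and to -0.13 without GFP-negative replicate 3. When the fit was repeated on probe sets above the median level of their chip alone, 28 of the 84 chromatin genes left were lower, against 15.5% of all genes left.

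**Figure D1:**
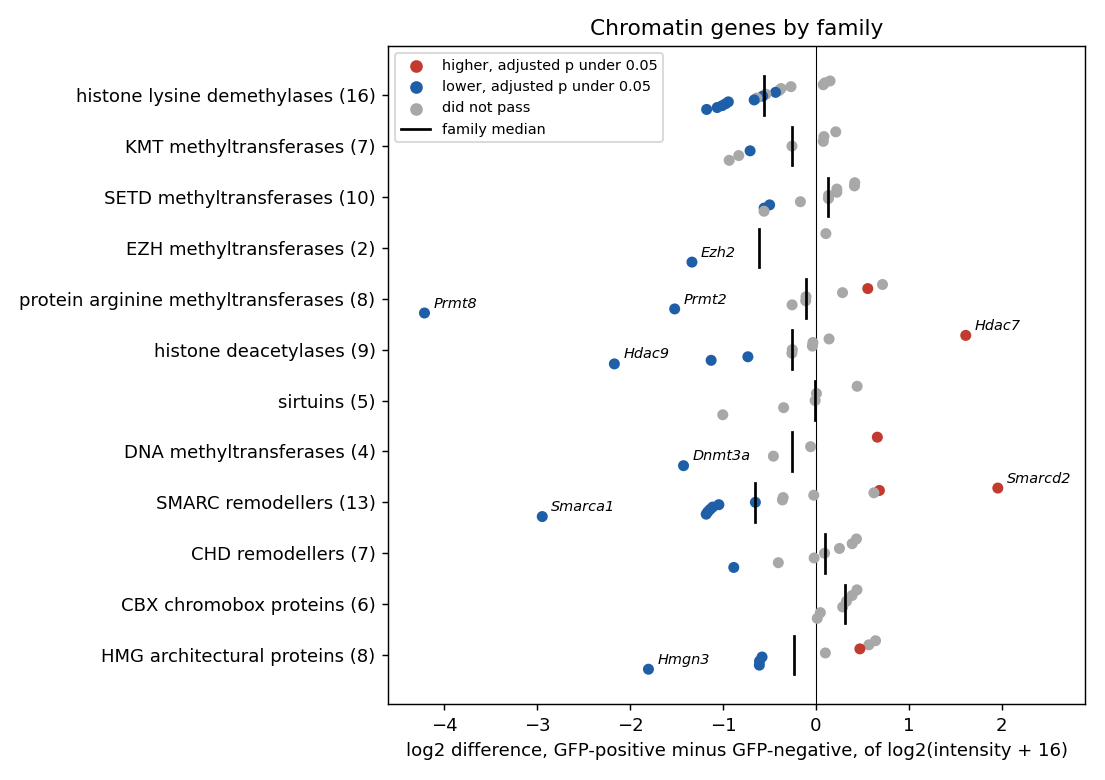
Log2 difference between GFP-positive and GFP-negative cells (horizontal axis, of log2(intensity + 16)) for each of the 95 genes, 1 point per gene, in rows by family with the number of genes. Red points passed as higher, blue points as lower and grey points did not pass; the black bar is the family median, which is -0.56 for the demethylases and -0.65 for the SMARC genes.

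Promoters are shown for 4 genes whose differences recur below, chosen after the values were seen. Hdac7 and Dnmt3b were higher in GFP-positive cells, and Prmt8 and Smarca1 had the largest reductions. Each window runs from 250 bases before to 50 bases after a transcription start in RefSeq on build GRCm38.p6, is written along the gene's strand, and is the one with the most CpG dinucleotides where a gene has several. Capitals mark the ETS factor core CGGAAG and the GC box GGGCGG on either strand, which can overlap by the letters CGG. The windows are chr15:97831718-97832017 on the minus strand for Hdac7 (1 of 4 windows), chr2:153649199-153649498 on the plus strand for Dnmt3b, chr6:127769106-127769405 on the minus strand for Prmt8 (1 of 2 windows) and chrX:47892564-47892863 on the minus strand for Smarca1.
Hdac7: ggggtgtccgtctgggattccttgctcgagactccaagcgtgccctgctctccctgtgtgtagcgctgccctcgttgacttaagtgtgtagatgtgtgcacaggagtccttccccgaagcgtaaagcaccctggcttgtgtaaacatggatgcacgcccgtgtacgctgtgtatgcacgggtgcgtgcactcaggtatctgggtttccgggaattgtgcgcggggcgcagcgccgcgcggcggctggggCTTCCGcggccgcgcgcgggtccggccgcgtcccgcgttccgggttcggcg
Dnmt3b: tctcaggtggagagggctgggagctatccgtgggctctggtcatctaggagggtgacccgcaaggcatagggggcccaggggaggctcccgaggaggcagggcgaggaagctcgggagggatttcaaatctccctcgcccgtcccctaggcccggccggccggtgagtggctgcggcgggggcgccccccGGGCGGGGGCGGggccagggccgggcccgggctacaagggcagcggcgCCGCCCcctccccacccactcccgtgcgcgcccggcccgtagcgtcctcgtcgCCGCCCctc
Prmt8: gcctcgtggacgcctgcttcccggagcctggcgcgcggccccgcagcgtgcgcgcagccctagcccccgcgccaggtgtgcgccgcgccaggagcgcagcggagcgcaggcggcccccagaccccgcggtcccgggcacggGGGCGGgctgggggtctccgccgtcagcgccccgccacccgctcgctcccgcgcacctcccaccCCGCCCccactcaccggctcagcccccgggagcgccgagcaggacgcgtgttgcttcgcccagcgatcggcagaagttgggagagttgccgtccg
Smarca1: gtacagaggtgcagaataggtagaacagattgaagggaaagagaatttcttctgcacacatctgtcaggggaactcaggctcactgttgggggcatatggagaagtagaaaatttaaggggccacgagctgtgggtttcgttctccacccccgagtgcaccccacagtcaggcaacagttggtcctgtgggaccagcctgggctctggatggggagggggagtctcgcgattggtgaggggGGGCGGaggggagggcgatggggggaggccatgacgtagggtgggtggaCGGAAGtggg

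The Hdac7, Dnmt3b and Prmt8 windows hold 35, 30 and 44 CpG dinucleotides, and the Smarca1 window holds 9. RefSeq windows were found for 79 of the 95 genes, 106 windows in all. Their median was 24 CpG dinucleotides, against 7 over all 32851 windows of 27025 RefSeq genes, which include genes not measured here. The GC box was in 69.8% of the windows of chromatin genes and 35.7% of all windows, and the ETS core in 25.5% and 16.9%. The CCAAT box (CCAAT) was in 39.6% and 37.4%, and the E-box CACGTG in 9.43% and 7.15%. Windows of the genes higher in GFP-positive cells (8 windows of 5 genes) had a median of 22.5 CpG dinucleotides, those of the lower genes (36 windows of 25 genes) 25.5, and those of the remaining genes 24. These are descriptions of letters and were not tested against the differences.

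The histone lysine demethylases were the largest family, and 8 of 16 were lower in GFP-positive cells while 0 were higher, against 11.9% and 9.83% of all genes. Kdm7a, which removes repressive methyl marks from histone H3, read 233, 246 and 155 on the GFP-positive arrays and 479, 473 and 515 on the GFP-negative arrays. All 3 GFP-positive arrays lay below all 3 GFP-negative arrays, and the difference was -1.17 (SE 0.17, adjusted p = 0.00413). The dimmer probe sets of Kdm7a did not pass, at 0.10, -0.058 and 0.023. Kdm5c, an X-linked enzyme that removes the activating methyl marks of promoters, read 162, 144 and 233 on the GFP-positive arrays and 413, 419 and 328 on the GFP-negative arrays. Its difference was -1.06 (SE 0.19, adjusted p = 0.00928), without overlap. The dimmer probe sets of Kdm5c did not pass. The brightest of these, unambiguous and on the same chip, stood at 0.32 (adjusted p = 0.156). On it all GFP-positive arrays lay above all GFP-negative arrays. Kdm1b, a flavin-dependent demethylase, was dim at 18.9, 19.9 and 13.6 on the GFP-positive arrays and 58.0, 51.1 and 44.8 on the GFP-negative arrays, a difference of -1.01 (SE 0.12, adjusted p = 0.00178) that shrank to -0.50 with a pseudocount of 64. Kdm5b, which acts on the same mark as Kdm5c, differed by -0.97 (adjusted p = 0.000798). Its dimmer probe set at -0.51 passed (adjusted p = 0.00731), and those at 0.30 and -0.76 did not.

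All 4 of the KDM2 and KDM3 enzymes measured were lower, a grouping made after the values were seen. KDM3 enzymes remove repressive methylation from histone H3, and KDM2 enzymes bind unmethylated CpG islands, where Kdm2b brings in polycomb proteins. The differences were -0.94 (adjusted p = 0.00938) for Kdm3b, -0.66 (adjusted p = 0.00569) for Kdm2b, -0.57 (adjusted p = 0.0104) for Kdm3a and -0.43 (adjusted p = 0.0439) for Kdm2a. Both probe sets of Kdm3b passed, and its difference was -0.59 with a pseudocount of 64. The call of Kdm2a was lost without GFP-positive replicate 1 or 2 or GFP-negative replicate 2 or 3 (adjusted p 0.102 to 0.131), and with quantile normalization, a pseudocount of 1, brighter probe sets only, limma-trend or adjustment over the 3 chips together (adjusted p 0.0526 to 0.124), and its 2 other probe sets did not pass, at 0.12 and 0.20. That of Kdm3a was lost without GFP-negative replicate 3 (adjusted p = 0.0525), and with limma-trend (adjusted p = 0.0554).

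The remaining 8 demethylases did not pass and lay between -0.64 and 0.15. The one with the highest level, Kdm4c, read 183, 174 and 85.2 on the GFP-positive arrays and 258, 152 and 239 on the GFP-negative arrays, with wide overlap and a difference of -0.54 (SE 0.31, adjusted p = 0.264). Kdm6a and Kdm6b, which remove the methyl mark set by EZH enzymes, stood at -0.64 (adjusted p = 0.202) and -0.39 (adjusted p = 0.544). Without GFP-positive replicate 1 Kdm6a was -0.93 (adjusted p = 0.0233). Kdm1a, the widely studied relative of Kdm1b, stood at 0.15 (adjusted p = 0.268).

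In the KMT family of lysine methyltransferases 1 of 7 (14.3%) was lower and 0 were higher, a share near the 11.9% of all genes that were lower. Kmt5b, which adds repressive methyl groups to histone H4, read 178, 114 and 199 on the GFP-positive arrays and 296, 247 and 272 on the GFP-negative arrays. The populations did not overlap, and the difference was -0.71 (SE 0.20, adjusted p = 0.0464). This call was lost without GFP-positive replicate 1 or 2 or GFP-negative replicate 1, 2 or 3 (adjusted p 0.0639 to 0.151), and with a pseudocount of 64, limma-trend or adjustment over the 3 chips together (adjusted p 0.0539 to 0.0567). The dimmer probe sets of Kmt5b did not pass, at 0.23, 0.038, 0.042 and -0.18. Kmt2e, a member of the MLL family, read 281, 312 and 205 on the GFP-positive arrays and 378, 415 and 693 on the GFP-negative arrays. Its arrays did not overlap either, but the difference of -0.83 (SE 0.26, adjusted p = 0.0874) did not pass. Kmt2c, an MLL enzyme of enhancers, stood at -0.93 (adjusted p = 0.0591), and at -1.18 (adjusted p = 0.0292) without GFP-positive replicate 2 and -0.65 (adjusted p = 0.0453) without replicate 3. The 6 genes that did not pass ranged from -0.93 to 0.21.

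In the SETD family 2 of 10 were lower and 0 were higher, against 11.9% and 9.83% of all genes. Setd6, known for methylating the NF-kB subunit RelA, read 37.9, 31.8 and 33.7 on the GFP-positive arrays and 62.6, 47.7 and 65.3 on the GFP-negative arrays. That was a difference of -0.56 (SE 0.12, adjusted p = 0.0225), or -0.31 with a pseudocount of 64. Setd7, which methylates histone H3 and many other proteins, read 269, 278 and 284 on the GFP-positive arrays and 421, 362 and 412 on the GFP-negative arrays. The GFP-positive arrays lay within a narrow band below the others, and the difference was -0.50 (SE 0.093, adjusted p = 0.0117). Setd5, the gene with the highest level that did not pass, read 415, 307 and 191 on the GFP-positive arrays and 262, 205 and 181 on the GFP-negative arrays, a difference of 0.42 (SE 0.28, adjusted p = 0.431). It was 0.70 (adjusted p = 0.0389) without GFP-positive replicate 3 and 0.17 (adjusted p = 0.752) without replicate 1. Its other 2 probe sets, which did not pass either, stood at -0.56 and -1.14. The other genes that did not pass lay between -0.56 and 0.42. The call of Setd6 was lost without GFP-positive replicate 2 or GFP-negative replicate 1 or 3 (adjusted p 0.0774 to 0.0899), and that of Setd7 without GFP-positive replicate 2 (adjusted p = 0.0501), and with limma-trend (adjusted p = 0.0789).

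Of the catalytic subunits of polycomb repressive complex 2, Ezh2 passed and Ezh1 did not. Ezh2, the form typical of dividing cells, read 116, 85.1 and 82.5 on the GFP-positive arrays and 272, 215 and 301 on the GFP-negative arrays. The GFP-positive values were all below the GFP-negative ones, and the difference was -1.33 (SE 0.17, adjusted p = 0.00350). Ezh1, its relative in resting cells, read 52.8, 68.0 and 77.0 on the GFP-positive arrays and 46.0, 52.2 and 85.7 on the GFP-negative arrays, with overlapping populations and a difference of 0.11 (SE 0.22, adjusted p = 0.795). Ezh2 was called under every alternative that measured it. The cell cycle genes named above were higher, not lower, in the population where Ezh2 was lower, with Mki67, the proliferation antigen, at 2.09 (adjusted p = 0.00808), and how the 2 relate was not tested.

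The arginine methyltransferases held the largest difference of all 95 genes. Prmt8, a membrane-anchored enzyme known mainly from neurons, read 74.4, 158 and 46.8 on the GFP-positive arrays and 1184, 2195 and 2338 on the GFP-negative arrays. The brightest GFP-positive array was far below the dimmest GFP-negative one, and the difference was -4.21 (SE 0.43, adjusted p = 0.00310). All 3 probe sets of Prmt8 passed, at -4.21, -2.99 and -1.45, of which the set at -2.99 is the only one that is not ambiguous. Prmt2, a coactivator of nuclear receptors, read 135, 151 and 158 on the GFP-positive arrays and 518, 513 and 348 on the GFP-negative arrays, again without overlap and with a difference of -1.52 (SE 0.17, adjusted p = 0.00363).

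Prmt6, which methylates an arginine of histone H3, was the only arginine methyltransferase that passed as higher. It read 81.7, 104 and 106 on the GFP-positive arrays and 54.2, 63.3 and 64.6 on the GFP-negative arrays, a difference of 0.56 (SE 0.12, adjusted p = 0.0207). Its other 2 probe sets did not pass (0.19 and 0.11), it was 0.37 with a pseudocount of 64, and the call was lost without GFP-positive replicate 2 or GFP-negative replicate 1 or 2 (adjusted p 0.0598 to 0.0811). Prmt1, the main source of asymmetric arginine methylation in most cells, read 411, 515 and 259 on the GFP-positive arrays and 226, 183 and 276 on the GFP-negative arrays. The populations overlapped through GFP-positive replicate 3, and the difference of 0.72 (SE 0.27, adjusted p = 0.136) did not pass. Without that array Prmt1 was 0.98 (adjusted p = 0.0161) and Prmt3 was 0.36 (adjusted p = 0.0168). The 5 genes that did not pass ranged from -0.26 to 0.72.

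**Figure D2:**
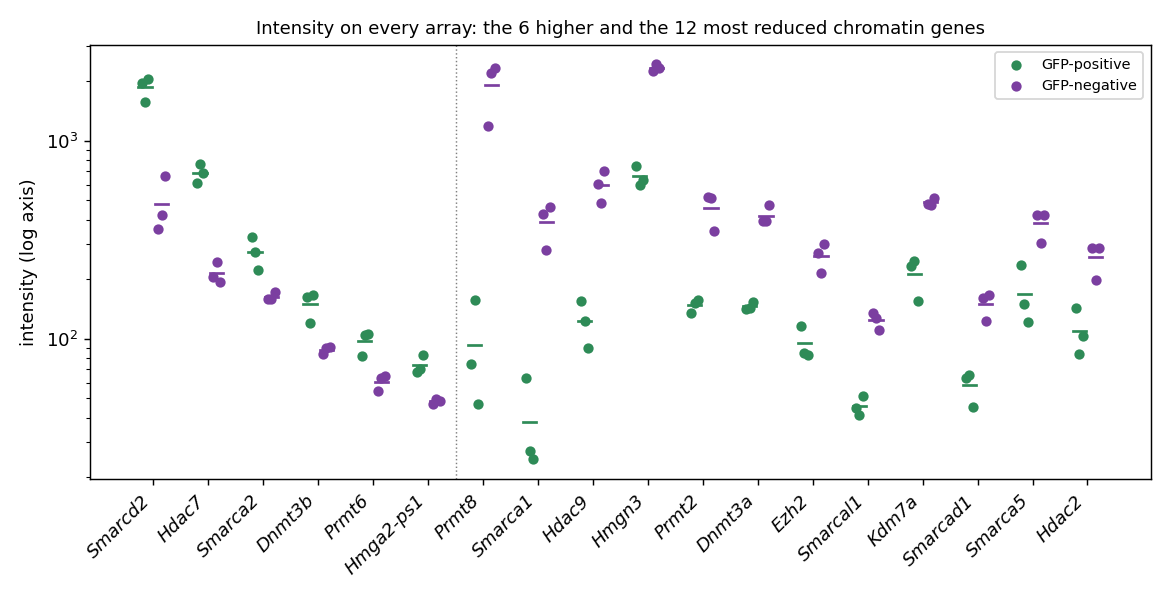
Intensity on each array (log axis) for the 6 genes higher and the 12 genes with the largest reductions in GFP-positive cells, with 3 GFP-positive arrays in green and 3 GFP-negative arrays in purple per gene and a bar at each mean. Within each gene the 2 colours do not overlap, and Prmt8 and Smarca1 show the widest gaps.

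Among the histone deacetylases 1 of 9 was higher and 3 were lower, against 9.83% and 11.9% of all genes, and the class IIa enzymes went in both directions. Class IIa deacetylases bind MEF2 transcription factors and shuttle between nucleus and cytoplasm, and Hdac7 is known to be needed for the integrity of embryonic vessels. Hdac7 read 614, 763 and 686 on the GFP-positive arrays and 204, 246 and 193 on the GFP-negative arrays. All GFP-positive arrays were above all GFP-negative arrays, and the difference was 1.61 (SE 0.12, adjusted p = 0.000595). Hdac9 read 155, 122 and 89.8 on the GFP-positive arrays and 607, 488 and 706 on the GFP-negative arrays. The order was the reverse of that of Hdac7, with a difference of -2.17 (SE 0.21, adjusted p = 0.00243). Hdac7 and Hdac9 were called under every alternative that measured them, but the 1 probe set of Hdac9 is ambiguous.

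Hdac5, another class IIa enzyme, read 186, 236 and 148 on the GFP-positive arrays and 300.5, 299 and 368 on the GFP-negative arrays. It was lower, with a difference of -0.73 (SE 0.18, adjusted p = 0.0374), and this call was lost without GFP-positive replicate 1 or GFP-negative replicate 1, 2 or 3 (adjusted p 0.0835 to 0.132), and with limma-trend or the replicate block (adjusted p 0.0592 to 0.106). Hdac4, the remaining class IIa gene, stood at 0.14 (adjusted p = 0.845), with 1 GFP-positive array at 275 and the others at 77.1 and 78.2. Of the 3 class I enzymes, which work in nuclear corepressor complexes, only Hdac2 passed. Hdac2 read 142, 84.0 and 103 on the GFP-positive arrays and 286, 199 and 287 on the GFP-negative arrays, a difference of -1.13 (SE 0.22, adjusted p = 0.0172) that was lost without GFP-negative replicate 1 or 3 (adjusted p 0.0716 to 0.0749). Hdac1 and Hdac3 stood at -0.037 (adjusted p = 0.806) and -0.25 (adjusted p = 0.154), and Hdac3 at -0.34 (adjusted p = 0.0327) without GFP-positive replicate 3. Hdac11, the gene of highest level that did not pass, read 113, 119 and 132 on the GFP-positive arrays and 123, 135 and 114 on the GFP-negative arrays, a difference of -0.032 (SE 0.10, adjusted p = 0.847) with overlapping arrays.

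None of the 5 sirtuins, the NAD-dependent deacylases, passed, where 21.8% of all genes did. Sirt7, a nucleolar enzyme, read 109, 142 and 182 on the GFP-positive arrays and 134, 145 and 144 on the GFP-negative arrays, and its difference was 0.0060 (SE 0.17, adjusted p = 0.985). Sirt5, a mitochondrial desuccinylase, read 143, 161 and 196 on the GFP-positive arrays and 95.4, 134 and 126 on the GFP-negative arrays. Its arrays did not overlap, but the difference of 0.44 (SE 0.16, adjusted p = 0.0994) did not pass. Sirt1, the nuclear deacetylase for which the family is best known, read 39.4, 42.6 and 23.5 on the GFP-positive arrays and 112, 49.2 and 107 on the GFP-negative arrays, a difference of -1.001 (SE 0.29, adjusted p = 0.0552). Without GFP-negative replicate 2 it was -1.32 (adjusted p = 0.0122), and a dimmer probe set of the gene passed in the opposite direction at 0.49. Sirt3 was -0.48 (adjusted p = 0.0295) without GFP-positive replicate 2 and -0.35 (adjusted p = 0.127) with all arrays.

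The de novo DNA methyltransferases also went in opposite directions. Dnmt3a and Dnmt3b both place methyl groups on unmethylated DNA, and Dnmt3b is the form known from early embryos. Dnmt3a read 141, 142 and 154 on the GFP-positive arrays and 393, 392 and 471 on the GFP-negative arrays. It was lower on every GFP-positive array, with a difference of -1.42 (SE 0.11, adjusted p = 0.000228). Dnmt3b read 163, 120.0 and 167 on the GFP-positive arrays and 83.4, 90.0 and 90.9 on the GFP-negative arrays. It was higher on every GFP-positive array, with a difference of 0.66 (SE 0.13, adjusted p = 0.0159), and its second probe set passed too at 0.62 (adjusted p = 0.0144). The call of Dnmt3b was lost without GFP-negative replicate 1 or 2 (adjusted p 0.0544 to 0.0629). That of Dnmt3a was lost with the probe set of the first chip that holds the gene (adjusted p = 0.110), since its other 3 probe sets, all dimmer, did not pass.

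Dnmt1, which copies methylation after replication, read 78.6, 54.0 and 105 on the GFP-positive arrays and 72.7, 77.8 and 92.7 on the GFP-negative arrays, a difference of -0.056 (SE 0.21, adjusted p = 0.896). Dnmt3l, a cofactor without catalytic activity, read 144, 131 and 1464 on the GFP-positive arrays and 307, 564 and 463 on the GFP-negative arrays. GFP-positive replicate 3 alone was above the GFP-negative arrays while the others were below them, and the difference was -0.46 (SE 0.87, adjusted p = 0.741). Without that array it was -1.55 (adjusted p = 0.00297). A dimmer probe set of Dnmt3l stood at 0.26 and did not pass.

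**Figure D3:**
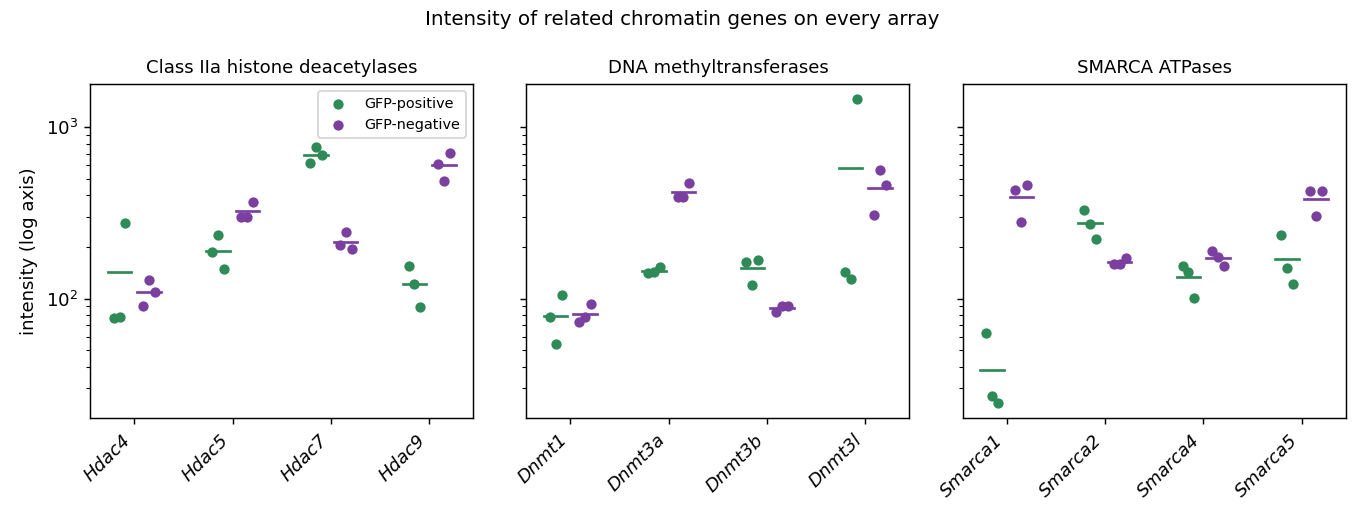
Intensity on each array (log axis) for 4 class IIa deacetylases, 4 DNA methyltransferases and 4 SMARCA ATPases, with GFP-positive arrays in green, GFP-negative arrays in purple and a bar at each mean. Hdac7, Dnmt3b and Smarca2 are higher and Hdac5, Hdac9, Dnmt3a, Smarca1 and Smarca5 lower in GFP-positive cells; 1 GFP-positive array stands high for Hdac4 and Dnmt3l. Levels of different genes cannot be compared.

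The SMARC genes had the highest share of calls (69.2%, against 21.8% of all genes), with 7 of 13 lower and 2 higher. The family name covers subunits of the SWI/SNF (BAF) complex and other ATPases of the same superfamily. All 4 of these other ATPases were lower, in a split of the family that was not among the planned comparisons. Smarca1, the ISWI ATPase known mainly from neurons, read 63.0, 26.9 and 24.6 on the GFP-positive arrays and 428, 279 and 461 on the GFP-negative arrays. The populations were far apart, with a difference of -2.94 (SE 0.31, adjusted p = 0.00335), and all 3 of its probe sets passed. Smarcal1, which rewinds DNA at stalled replication forks, read 44.9, 41.0 and 51.6 on the GFP-positive arrays and 135, 127 and 111 on the GFP-negative arrays. Its difference was -1.18 (SE 0.11, adjusted p = 0.000635), or -0.78 with a pseudocount of 64, while its other 4 probe sets did not pass. Smarcad1, a remodeller that helps to restore silent chromatin after replication, read 63.4, 65.6 and 45.4 on the GFP-positive arrays and 160.4, 123 and 166 on the GFP-negative arrays, a difference of -1.16 (SE 0.16, adjusted p = 0.00476). Its dimmer probe sets stood at -1.07, which passed on an ambiguous set, and at 0.014, which did not pass. Smarca5, the ISWI ATPase found in most cells, stood at -1.14 (adjusted p = 0.0200), a call that was lost without GFP-positive replicate 2 or GFP-negative replicate 1 or 3 (adjusted p 0.0679 to 0.0831), and with the probe set of the first chip that holds the gene (adjusted p = 0.0544). The dimmer probe sets of Smarca5, both unambiguous, did not pass, at -0.60 and -0.044.

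Of the 9 SWI/SNF subunits 3 were lower and 2 higher. The lower ones were the scaffold subunit Smarcc2 at -1.11 (adjusted p = 0.00331), the HMG-box subunit Smarce1 at -1.04 (adjusted p = 0.00512) and the core subunit Smarcb1 at -0.65 (adjusted p = 0.00722). The dimmer probe set of Smarce1 did not pass, at 0.15. Smarca2 (Brm), 1 of the 2 alternative ATPases of the complex, read 327, 274 and 223 on the GFP-positive arrays and 159, 159 and 172 on the GFP-negative arrays. It was higher without overlap, with a difference of 0.68 (SE 0.14, adjusted p = 0.0175), but the call was lost without GFP-positive replicate 2 or GFP-negative replicate 1 or 2 (adjusted p 0.0619 to 0.0666), and with ambiguous probe sets left out or the probe set of the first chip that holds the gene (adjusted p = 0.0976). Smarca4 (Brg1), the other ATPase, stood at -0.36 (adjusted p = 0.204).

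Smarcd2, an accessory subunit, had the largest difference among the higher genes, on an ambiguous probe set. It read 1962, 1570.3 and 2059.6 on the GFP-positive arrays and 357, 421 and 667 on the GFP-negative arrays, a difference of 1.96 (SE 0.24, adjusted p = 0.00336). Its 3 other probe sets did not pass, at 0.020, 0.27 and -0.052, and the last of these is the only one without such a code. The call of Smarcd2 thus rests on 1 of 4 probe sets. The measuring probe set of Smarca2 is ambiguous too, and its unambiguous set on the first chip stood at 0.77 without overlap, a difference that did not pass (adjusted p = 0.0976). Smarcc1, the partner of Smarcc2 and the gene of highest level that did not pass, read 411, 726 and 811 on the GFP-positive arrays and 712, 958 and 751 on the GFP-negative arrays, a difference of -0.35 (SE 0.27, adjusted p = 0.460) with overlapping arrays. Smarcd1 stood at -0.023 (adjusted p = 0.982) with all arrays and at -0.50 (adjusted p = 0.00699) without GFP-positive replicate 3.

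Of 7 CHD remodellers 1 (14.3%) passed, against 21.8% of all genes. Chd2, which is linked to deposition of a replacement histone at active genes, read 217, 271 and 232 on the GFP-positive arrays and 471, 409 and 486 on the GFP-negative arrays. The arrays did not overlap, and the difference was -0.88 (SE 0.12, adjusted p = 0.00282). Chd4, the ATPase of the NuRD deacetylase complex, read 1374, 2703 and 2103 on the GFP-positive arrays and 1783, 2022 and 2254 on the GFP-negative arrays, with overlapping arrays and a difference of -0.019 (SE 0.25, adjusted p = 0.976). The 6 genes that did not pass ranged from -0.40 to 0.44. Chd5, a remodeller known mainly from neurons, stood at 0.44 (adjusted p = 0.432), with GFP-positive replicate 3 at 209 and the other 2 at 74.4 and 68.8.

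None of the 6 chromobox genes passed, where 21.8% of all genes did, and their differences lay between 0.015 and 0.44. The lowest, that of Cbx3, was -0.012 with median-centred arrays. Cbx6, a subunit of polycomb repressive complex 1, read 625, 913 and 660.4 on the GFP-positive arrays and 433, 570.2 and 665 on the GFP-negative arrays, a difference of 0.39 (SE 0.21, adjusted p = 0.279). Cbx5, the heterochromatin protein HP1 alpha, read 217, 228 and 279.9 on the GFP-positive arrays and 129.8, 196 and 201 on the GFP-negative arrays. Its populations did not overlap, and the difference of 0.44 (SE 0.18, adjusted p = 0.140) did not pass. Cbx1, another HP1 protein, was 0.68 (adjusted p = 0.00783) without GFP-positive replicate 3, and Cbx2 was 0.41 (adjusted p = 0.0344) without replicate 1.

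Among the HMG genes 4 of 8 were lower and 1 was higher, against 11.9% and 9.83% of all genes. Hmgn3, a nucleosome-binding protein known from eye, brain and endocrine pancreas, read 749, 601 and 635 on the GFP-positive arrays and 2244, 2430.1 and 2332 on the GFP-negative arrays. It was lower on all GFP-positive arrays, with a difference of -1.80 (SE 0.11, adjusted p = 0.000107). Hmgn1, a more widespread relative, read 2722, 3406 and 4048 on the GFP-positive arrays and 4871, 5018 and 5463 on the GFP-negative arrays. The difference was -0.61 (SE 0.15, adjusted p = 0.0431), and the call was lost without GFP-positive replicate 1 or 2 or GFP-negative replicate 1, 2 or 3 (adjusted p 0.0535 to 0.151), and with a pseudocount of 64 (adjusted p = 0.0522). Hmgb3, an HMG-box protein of embryonic tissue, differed by -0.58 (adjusted p = 0.0187), lost without GFP-negative replicate 2 or 3 (adjusted p 0.0674 to 0.0808).

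Hmga2, an AT-hook protein of embryonic cells, was dim at 13.8, 14.4 and 16.9 on the GFP-positive arrays and 33.2, 29.6 and 30.9 on the GFP-negative arrays. The difference was -0.61 (SE 0.073, adjusted p = 0.00310), and it lay between -0.27 and -1.01 with pseudocounts of 64 and 1. Hmga2-ps1, a transcribed pseudogene of Hmga2, went the other way. It read 68.2, 70.2 and 82.4 on the GFP-positive arrays and 46.9, 49.6 and 48.7 on the GFP-negative arrays, a difference of 0.47 (SE 0.095, adjusted p = 0.0155) that was 0.29 with a pseudocount of 64 and was lost without GFP-positive replicate 2 or GFP-negative replicate 1 (adjusted p 0.0506 to 0.0512). Because gene and pseudogene are near copies, signal may be shared between their probe sets, and both values are uncertain. Hmgn5, the gene of highest level that did not pass, read 601, 326 and 212 on the GFP-positive arrays and 300.3, 185 and 214 on the GFP-negative arrays, a difference of 0.57 (SE 0.38, adjusted p = 0.392). It was 0.19 (adjusted p = 0.725) without GFP-positive replicate 1 and 0.91 (adjusted p = 0.0832) without replicate 3. Hmgb2, which is abundant in dividing cells, stood at 0.64 (adjusted p = 0.100) and at 0.83 (adjusted p = 0.0196) without GFP-positive replicate 3.

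Left-out arrays and other probe sets bore on many single calls. Of the 36 calls, 14 held under every alternative that measured them, the stricter thresholds included. These were Ezh2, Hdac7, Hdac9, Hmgn3, Kdm1b, Kdm5c, Kdm7a, Prmt2, Prmt8, Smarca1, Smarcad1, Smarcal1, Smarcc2 and Smarce1. For Kdm5c, Kdm7a, Smarcad1, Smarcal1 and Smarce1, leaving out ambiguous probe sets or taking the first chip chose the same probe set again. Dimmer probe sets of these genes that did not pass were therefore not used in this count. Without GFP-positive replicate 3 all 36 calls were kept and 11 were gained, 6 higher and 5 lower. Besides those named above, these were Setd4 (0.47, adjusted p = 0.0421) and Setd3 (-0.67, adjusted p = 0.0330), where Setd3 was 0.23 with all arrays. Leaving out any other single array lost between 4 and 10 calls, and 0 calls turned. Of the 36 called genes, 16 had 1 probe set, 4 had several that all passed in 1 direction (Dnmt3b, Kdm3b, Prmt8 and Smarca1), and 16 had others that did not pass. No gene had probe sets called in both directions.

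The partners of these enzymes were listed by complex, and 161 of 182 listed genes were measured. Of the 161, 38 (23.6%) were lower and 7 (4.35%) were higher in GFP-positive cells, against 11.9% and 9.83% of all genes. Their median difference was -0.14, and that of all genes was 0.040. Among 21 further polycomb genes 7 (33.3%) were lower and 1 (4.76%) higher. The lower genes included Bmi1, a core subunit of polycomb repressive complex 1 (-1.64, adjusted p = 0.00111), its relative Pcgf5 (-1.40, adjusted p = 0.0110) and Phc3 (-1.10, adjusted p = 0.00990). Suz12, which Ezh2 needs for activity, differed by -0.92 (adjusted p = 0.0185), lost without GFP-positive replicate 2 or GFP-negative replicate 1, 2 or 3 (adjusted p 0.0502 to 0.0660), and with the replicate block (adjusted p = 0.0735). The higher gene was L3mbtl2 (0.43, adjusted p = 0.0404), lost without GFP-positive replicate 1 or 2 or GFP-negative replicate 1 or 2 (adjusted p 0.0939 to 0.125), and with quantile normalization, a pseudocount of 1, brighter probe sets only, limma-trend or the replicate block (adjusted p 0.0525 to 0.116). Jarid2 did not pass (-0.31, adjusted p = 0.398).

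Among 20 trithorax and other methyltransferase genes 6 (30%) were lower and 2 (10%) higher, against 11.9% and 9.83% of all genes. Mecom, a zinc-finger factor with a SET-like domain, read 319, 367 and 333 on the GFP-positive arrays and 11.4, 10.1 and 10.7 on the GFP-negative arrays. Every GFP-positive array was far above every GFP-negative one, with a difference of 3.73 (adjusted p = 9.84e-06), or 2.43 with a pseudocount of 64. Smyd3 was also higher (0.98, adjusted p = 0.0296), lost without GFP-positive replicate 1 or 2 or GFP-negative replicate 1 or 2 (adjusted p 0.0750 to 0.109), and with the replicate block (adjusted p = 0.0701). The largest reductions were those of Ehmt2 (-0.84, adjusted p = 0.0108, and 0.0506 without GFP-negative replicate 1), Ash2l (-0.69, adjusted p = 0.00315) and Rbbp5 (-0.64, adjusted p = 0.00990), of which Ash2l and Rbbp5 are core subunits of the MLL complexes. Cxxc1 did not pass (0.41, adjusted p = 0.0843).

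Of 8 other demethylase-type genes 3 (37.5%) were lower and 0 higher, against 11.9% and 9.83% of all genes. The lower genes were Phf8 (-1.28, adjusted p = 0.00438), Phf2 (-1.01, adjusted p = 0.00331) and Riox2 (-0.43, adjusted p = 0.0199). The call of Riox2 was lost without GFP-positive replicate 1 or 2 or GFP-negative replicate 1, 2 or 3 (adjusted p 0.0508 to 0.0682), and with limma-trend (adjusted p = 0.0501). Jmjd6 did not pass (-0.87, adjusted p = 0.742), with GFP-positive replicate 3 at 5229 and the other 2 arrays at 48.2 and 54.2. Of 19 acetyltransferases and acetyl readers 2 were lower, the coactivators Ncoa1 (-1.42, adjusted p = 0.00308) and Ncoa2 (-1.15, adjusted p = 0.0445), and Brd1 did not pass (-0.39, adjusted p = 0.297). Of 19 deacetylase complex subunits 2 were lower, Gse1 (-0.98, adjusted p = 0.0495) and Rcor3 (-0.86, adjusted p = 0.0282), and Rcor2 did not pass (0.41, adjusted p = 0.602). In the acetyltransferase and the deacetylase complex lists alike, the share of lower genes was below the 11.9% of all genes, and 0 genes were higher. The call of Ncoa2 was lost without GFP-positive replicate 1, 2 or 3 or GFP-negative replicate 1 or 3 (adjusted p 0.0589 to 0.133), and with quantile normalization, a pseudocount of 64, array weights or the replicate block (adjusted p 0.0568 to 0.0915). That of Gse1 was lost without GFP-positive replicate 1 or 2 or GFP-negative replicate 1, 2 or 3 (adjusted p 0.0960 to 0.134), and with a pseudocount of 64 (adjusted p = 0.0669). That of Rcor3 was lost without GFP-positive replicate 2 or GFP-negative replicate 1, 2 or 3 (adjusted p 0.0507 to 0.0715), and with quantile normalization or the replicate block (adjusted p 0.0798 to 0.0817).

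Of 17 other SWI/SNF subunits 5 (29.4%) were lower and 0 higher, against 11.9% and 9.83% of all genes. Bcl7a read 7.74, 10.7 and 8.94 on the GFP-positive arrays and 294, 281 and 178 on the GFP-negative arrays, a difference of -3.38 (adjusted p = 7.79e-05), or -2.09 with a pseudocount of 64. The DNA-binding subunits Arid1a (-1.01, adjusted p = 0.000988), Arid1b (-0.93, adjusted p = 0.00317) and Arid2 (-0.93, adjusted p = 0.00430) were lower as well, and actin (Actb) did not pass (0.29, adjusted p = 0.0748). Of 21 ISWI and INO80 partners 5 (23.8%) were lower and 1 (4.76%) higher. The higher one was Hells, a remodeller that DNA methylation of repeats depends on, which read 55.1, 69.0 and 70.4 on the GFP-positive arrays and 17.8, 14.4 and 19.4 on the GFP-negative arrays, a difference of 1.28 (adjusted p = 0.000515), or 0.66 with a pseudocount of 64. The largest reductions were those of Baz2a (-0.70, adjusted p = 0.0235), Baz1b (-0.62, adjusted p = 0.0368) and Bptf (-0.55, adjusted p = 0.0205), the last a subunit that works with Smarca1 and Smarca5, while Baz2b did not pass (-0.47, adjusted p = 0.501). The call of Baz2a was lost without GFP-positive replicate 1 or 2 or GFP-negative replicate 2 (adjusted p 0.0635 to 0.0708). That of Baz1b was lost without GFP-positive replicate 1 or 2 or GFP-negative replicate 1, 2 or 3 (adjusted p 0.0596 to 0.116), and with limma-trend (adjusted p = 0.0751). That of Bptf was lost without GFP-positive replicate 2 or GFP-negative replicate 1 or 2 (adjusted p 0.0597 to 0.0755), and with quantile normalization or limma-trend (adjusted p 0.0647 to 0.0847).

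Of 12 DNA methylation partners 4 (33.3%) were lower and 1 (8.33%) higher, against 11.9% and 9.83% of all genes. Uhrf1, which guides Dnmt1 to newly copied DNA, was higher at 0.78 (adjusted p = 0.00580). Gadd45g (-1.65, adjusted p = 0.000372), the methyl-DNA reader Zbtb33 (-1.52, adjusted p = 0.00157) and the methylcytosine oxidase Tet1 (-1.43, adjusted p = 0.0385) were lower, with Tet1 lost without GFP-positive replicate 2 or GFP-negative replicate 1, 2 or 3 (adjusted p 0.0819 to 0.138), and with a pseudocount of 64 (adjusted p = 0.0561). Uhrf2 did not pass (-0.49, adjusted p = 0.0663). Of 24 histone chaperones, variants and architectural genes 4 (16.7%) were lower and 2 (8.33%) higher, against 11.9% and 9.83% of all genes. The histone variant Macroh2a1 (-1.39, adjusted p = 0.00184) and the chaperones Anp32a (-1.05, adjusted p = 0.00800) and Anp32e (-1.01, adjusted p = 0.00214) were lower. Anp32b (0.98, adjusted p = 0.0448) and the cohesin subunit Smc1a (0.84, adjusted p = 0.0129) were higher, and Npm1 did not pass (0.26, adjusted p = 0.200). The call of Anp32b was lost without GFP-positive replicate 3 or GFP-negative replicate 1, 2 or 3 (adjusted p 0.0601 to 0.136), and with a pseudocount of 64, array weights or the replicate block (adjusted p 0.0514 to 0.0642). That of Smc1a was lost without GFP-positive replicate 2 or GFP-negative replicate 1 (adjusted p 0.0509 to 0.0548).

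**Figure D4:**
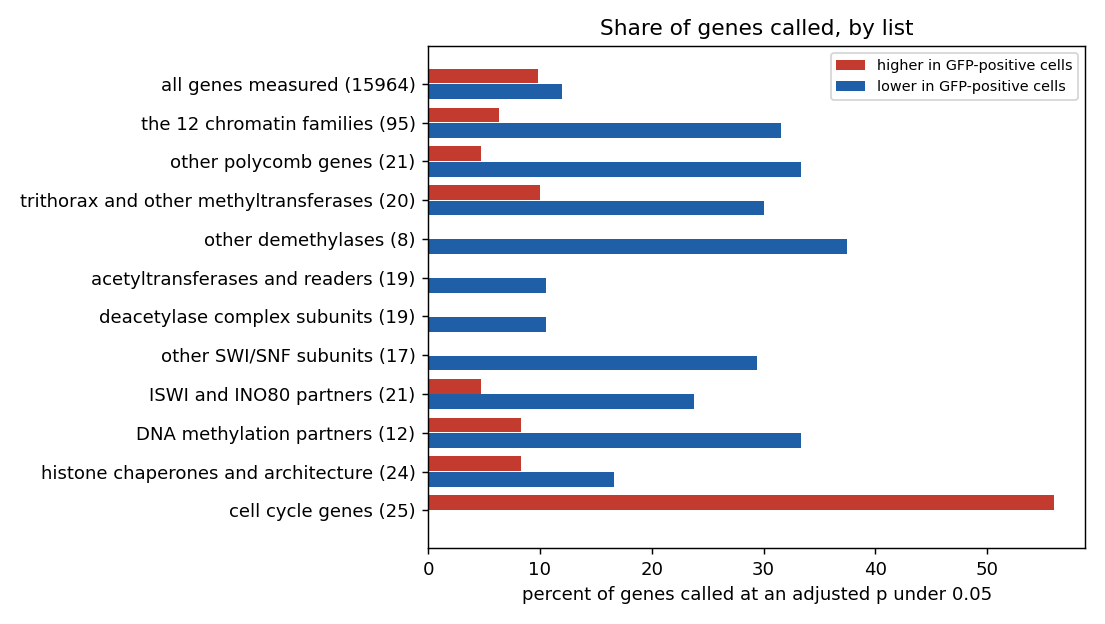
Percent of genes (horizontal axis) that passed as higher (red) or lower (blue) in GFP-positive cells, for all genes, the 12 families, each list of partners and the cell cycle genes, with the number of genes measured in parentheses. Lower genes outnumber higher ones in the 12 families (31.6% against 6.32%) and in every list of partners. They also do so over all genes (11.9% against 9.83%). In the acetyltransferase and deacetylase complex lists the share of lower genes was below that of all genes. Among the cell cycle genes higher ones outnumber lower ones.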

How the data were processed

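The deposited files hold intensities on a linear scale for every probe set, with array medians between 32.5 and 44.6. The steps by which the authors summarised, background-corrected and scaled them are not given in the sources used here; such steps could change every difference. The sample titles gave each array's population, chip and replicate number. Detection calls were not used here, so dim values may be background.

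Symbols came from the platform annotation, where 10833, 10581 and 7717 probe sets of chips A, B and C had 1 symbol; those with several were left unnamed. Each gene was measured by the probe set with the highest mean log2(intensity + 16) over the 6 arrays of its chip. Chips were fitted separately in R 4.3.3 with limma 3.58.1 (two-sided, lmFit followed by eBayes), with Benjamini-Hochberg adjustment over all probe sets of the chip, a threshold of 0.05 and no replicate block. The fit was tested on simulated data.

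The families and lists were chosen with earlier results of these data known. Every gene of the families that passed is named. Values on every array are given for up to 3 such genes per family and direction and for the gene of highest level that did not pass, or for 2 in families without a call. Partner lists name up to 3 per direction and 1 that did not pass. Suz12, Mki67 and some further genes that did not pass were named after their values were seen. Promoter windows from RefSeq were searched with Python 3.11.15, and figures drawn with matplotlib 3.10.9. Alternatives changed the scaling, pseudocount, low-value filter, variance model, array weights, replicate block, adjustment, probe set choice or threshold, or left out 1 array at a time.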

Additional observations from a re-analysis of the deposited data

How the results depend on the processing

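The counts of 6 higher and 30 lower genes stayed within 1.5 times their value under median-centred arrays, quantile normalization, a pseudocount of 1 or 64, brighter probe sets, limma-trend, the replicate block (7 and 29), adjustment over the 3 chips, ambiguous probe sets left out and another choice of probe set. Array weights gave 12 higher genes, an adjusted p under 0.01 gave 2 and a 2-fold minimum gave 2 higher and 16 lower. Leaving out 1 array gave 2 to 12 higher and 21 to 35 lower genes. The median difference of -0.25 was -0.13 with a pseudocount of 64, -0.15 with array weights and -0.24 to -0.069 with 1 array left out. With ambiguous probe sets left out 0 SMARC genes were higher, where the main setting had 2 (Smarcd2 and Smarca2). Smarcd2 was then -0.052, since another probe set measures it.

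Deviations of same-numbered GFP-positive and GFP-negative arrays from their population means correlated at 0.18 to 0.29 for replicate 1. For replicates 2 and 3 they correlated at -0.37 to -0.13. The labels do not say whether same-numbered arrays share a pool, and with 3 arrays per population these values cannot decide it. With the number as a block 1 of the 36 calls was lost (Hdac5, adjusted p = 0.106) and Hmgb2 was gained. Signal limits what dim genes such as Hmga2, Kdm1b and Setd6 can show, since they lay below the median of their chip. Not analysed here were genes of these families without a probe set that carries their symbol alone, such as Hdac8 and Sirt6.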

Other observations

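For 5 genes that did not pass on their measuring probe set, a dimmer probe set did. Chd5 had 1.02 (adjusted p = 0.00338) on its second probe set, beside 0.44 on the first, and Setdb1, a methyltransferase of silent chromatin, had 0.50 (adjusted p = 0.0168) beside 0.14. Chd7, a remodeller of neural crest enhancers, had -1.15 (adjusted p = 0.0139) beside -0.40, and Smarca4 had -0.64 (adjusted p = 0.0464) beside -0.36. Sirt1 had 0.49 (adjusted p = 0.0452) beside -1.001, the only opposite pair among them. Among the 57 chromatin genes with several probe sets, 32 had none that passed, 21 had some and 4 had all.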
